A study of Parasteatoda tepidariorum with 10 samples.

Results

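In the stage-3 embryo of the house spider *Parasteatoda tepidariorum*, peak lists cut to equal length gave 20289 genomic regions with an accessibility peak. Of these, 316 (1.56%) had a peak in both *fuchi* pRNAi lists and in none of the wild-type and *Pt-hh* pRNAi lists. At 279 of the 316, the uncut list of a wild-type or *Pt-hh* pRNAi library did hold a peak of lower rank. The regions were chosen by measured values. Each of the 6 stage-3 peak lists was cut to its 10616 peaks of highest signal, the length of the shortest list, overlapping peaks were merged, and the regions with peaks in both *fuchi* pRNAi lists and no other list were kept. They are called *fuchi*-only regions here, and the absence of a peak from the other lists of equal length is part of their definition and not a result.

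The study used ATAC-seq, a method that reads out open chromatin through adapter insertion by the Tn5 transposase, on 10 libraries of whole embryos from the isolate Osaka. The 5 groups of 2 libraries each were wild-type embryos at stage 1 (9 h after egg laying), stage 2 (12 h) and stage 3 (18 h), and stage-3 embryos whose mothers had received double-stranded RNA for *fuchi* or *Pt-hh*, a procedure called parental RNA interference (pRNAi). Each library of stages 1 and 2 was made from 200 embryos and each library of stage 3 from 40 embryos. The labels give the source as line 39 for replicate 1 of wild-type stages 1, 2 and 3 and for *Pt-hh* pRNAi replicate 2, and as line 40 for replicate 2 of wild-type stages 2 and 3, both *fuchi* pRNAi libraries and *Pt-hh* pRNAi replicate 1. Stage-1 replicate 2 has a source code that names neither line. Whole embryos hold all cell types together, so a peak present in fewer cells and a weaker peak per cell cannot be told apart, and the peak lists do not measure the knockdown itself.

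*fuchi* encodes a GATA-like zinc finger protein of spiders, and *Pt-hh*, the *hedgehog* gene of the spider, encodes a secreted signalling protein. GATA proteins bind short DNA motifs in regulatory elements, and members of the family in other animals take part in the choice of endodermal and other early fates. In the spider embryo, stage 3 is the time at which the germ disc forms and its cells come to differ from those of the opposite side of the embryo. Open chromatin marks promoters, enhancers and other elements to which proteins gain access, and a peak alone does not tell which of these it is. Genes and sequences at the regions were not analysed here, since the gene table at hand belongs to another assembly than the lists, whose positions refer to Ptep_2.0.

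Of the 6903 regions that had a peak in both *fuchi* pRNAi lists, the *fuchi*-only regions made up 4.58%. Another 600 regions (8.69%) had a peak in 1 of the other 4 lists, 701 (10.2%) in 2, 1018 (14.7%) in 3 and 4268 (61.8%) in all 4. The 6587 regions with both *fuchi* pRNAi peaks and at least 1 other are called shared regions. By the same definition, 174 regions had peaks in both wild-type lists only and 243 in both *Pt-hh* pRNAi lists only, and 330 regions had peaks in the other 4 lists and lacked both *fuchi* pRNAi peaks. These counts are given as a description, and no test of them was made.

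The *fuchi*-only regions lay low in the signal order of the lists. The signal of a peak is the area that its peak caller adds up along the peak from the significance at each base, and a signal percentile of 100 stands for the strongest peak of a list of equal length. In *fuchi* pRNAi replicate 1 the signal of the 316 peaks ranged from 200.3 to 868 with a median of 262, against a median of 419 in the shared regions. In replicate 2 it ranged from 247 to 816 with a median of 299, against 489 in the shared regions. The −log10 p-value at the summit had medians of 3.47 and 3.53 in replicates 1 and 2, against 3.80 and 3.98 in the shared regions. The mean signal percentile over both replicates ranged from 2.02 to 85.6 with a median of 28.1 and quartiles of 18.2 and 41.4. The median was 62.3 in the shared regions and 73.9 in the 4268 regions of all 6 lists.

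Few *fuchi*-only regions were strong. A mean percentile of 50 or more was reached by 37 of them (11.7%), against 65.6% of the shared regions, and 96 (30.4%) were below 20. In bands of 10 percentiles from the lowest upwards they numbered 25, 71, 73, 60, 50, 27, 4, 3, 3 and 0, so that 3 regions stood above 80 and none above 90. In their own lists, the other small sets had median percentiles of 29.7 (wild-type-only), 24.7 (*Pt-hh*-only) and 43.4 (lacking only *fuchi* pRNAi peaks).

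Both replicates placed most of the regions low, but they did not give the same order. The percentile in replicate 1 ranged from 0.198 to 92.2 with a median of 29.7, and in replicate 2 from 0.283 to 87.3 with a median of 23.1. It was higher in replicate 1 at 198 regions and higher in replicate 2 at 118. The 2 percentiles of a region differed by a median of 16.9, with quartiles of 7.42 and 32.1 and a largest difference of 81.3. Both were below 50 at 212 regions and both at 50 or above at 12.

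**Figure D1:**
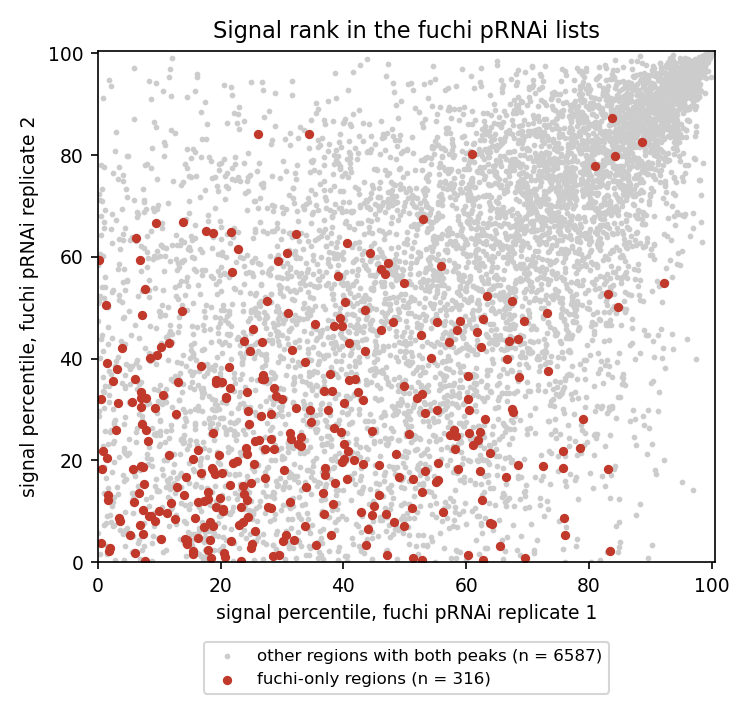
Signal percentile of each region in *fuchi* pRNAi replicate 1 (x axis) and replicate 2 (y axis), both from 0 to 100, for the 316 *fuchi*-only regions (red) and the 6587 shared regions (grey). The red points lie mostly in the lower left, 212 of them below 50 on both axes, while the grey points are densest in the upper right.

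The summits of the replicates were as close together in the *fuchi*-only regions as in stronger ones. The median distance between the summits of the 2 *fuchi* pRNAi peaks was 30 bp, with quartiles of 7.75 and 73.5 bp, and it was 30 bp in the shared regions as well. The summits lay within 50 bp of each other at 203 *fuchi*-only regions (64.2%), at 63.6% of the shared regions and at 64.2% of the regions of all 6 lists. The regions were narrower than the shared ones. Their width ranged from 136 to 1792 bp with a median of 441 bp and quartiles of 317.5 and 630 bp, against a median of 661 bp in the shared regions. Part of the gap follows from merging, since a shared region joins peaks of more lists. The single peaks had median widths of 379 and 395.5 bp in replicates 1 and 2, against 487 and 516 bp in the shared regions, and no *fuchi*-only region held more than 1 peak of a list. Together the 316 regions covered 158202 bp.

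The equal list length sets a limit that some regions only just passed. The list of *fuchi* pRNAi replicate 1 was the shortest and was used whole, so its lowest signal, 200.0, was the floor that the caller applied in every list. The lowest signals kept were 246 in *fuchi* pRNAi replicate 2, 359 and 230 in the wild-type replicates and 410 and 360 in the *Pt-hh* pRNAi replicates, so that a peak of the same signal could be inside one list and outside another. The members nearest the limit were NW_018378778.1:36857-37845, with a signal of 200.3 at rank 10596 in replicate 1 and 452 in replicate 2, and NW_018378926.1:1142601-1143040, with 247 in both replicates and rank 10587 in replicate 2. The nearest regions outside it were NW_018374540.1:974568-974922, at rank 10655 of replicate 2 with a signal of 246, and NW_018373202.1:349547-349841, at rank 10681 with 245. At 50 members, at least 1 of the *fuchi* pRNAi peaks lay within 500 ranks of the limit. Another 199 regions had a peak in replicate 1 alone among the 6 lists and a weaker one below the limit in the full list of replicate 2, 34 of them within 500 ranks of it.

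Most *fuchi*-only regions did have a peak elsewhere at stage 3 once the full lists were searched. At 279 regions (88.3%, exact 95% binomial interval 84.2 to 91.6%) at least 1 of the other 4 libraries had an overlapping peak below the limit, called a weaker peak here. It was found in a *Pt-hh* pRNAi library at 269 regions (85.1%) and in a wild-type stage-3 library at 164 (51.9%). The remaining 37 regions (11.7%) had no stage-3 peak outside the *fuchi* pRNAi lists. The binomial intervals given for these shares cover counting over regions only, and not the spread between libraries. No share over all stage-3 regions was computed for these pooled counts, so they are not read as a trait of the members. The shares in single lists are set against all regions and against shared regions below.

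The number of weaker peaks differed between the lists, as did the number of peaks each held below the limit. In wild-type replicate 1, which had 9196 peaks below it, 134 members (42.4%, interval 36.9 to 48.1%) had a weaker peak. In wild-type replicate 2, which had only 1878 peaks below the limit, the number was 53 (16.8%, 12.8 to 21.4%). In *Pt-hh* pRNAi replicate 1, with 12429 peaks below the limit, it was 236 (74.7%, 69.5 to 79.4%). In *Pt-hh* pRNAi replicate 2, with 9116, it was 206 (65.2%, 59.7 to 70.4%). Those of 9196 and 9116 peaks thus went nearly equally far below the limit, and the wild-type one held a weaker peak at 134 members where the *Pt-hh* pRNAi one held one at 206.

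Over all stage-3 regions without a peak in the list of equal length, a weaker peak was found at 45.8% in wild-type replicate 1, 10.4% in wild-type replicate 2, 55.3% in *Pt-hh* pRNAi replicate 1 and 48.4% in *Pt-hh* pRNAi replicate 2. The *fuchi*-only share was thus above this background in wild-type replicate 2 and in both *Pt-hh* pRNAi libraries, and below it in wild-type replicate 1. A closer comparison was with the shared regions that lacked a peak in the same list, weighted to the signal percentiles of the *fuchi*-only regions. Their shares were 71.3% and 20.7% in the wild-type replicates and 84.0% and 82.3% in the *Pt-hh* pRNAi replicates. All 4 values were above those of the *fuchi*-only regions, and the gap was widest in wild-type replicate 1. These shared regions had a peak in at least 1 other library by definition, which the *fuchi*-only regions had not.

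**Figure D2:**
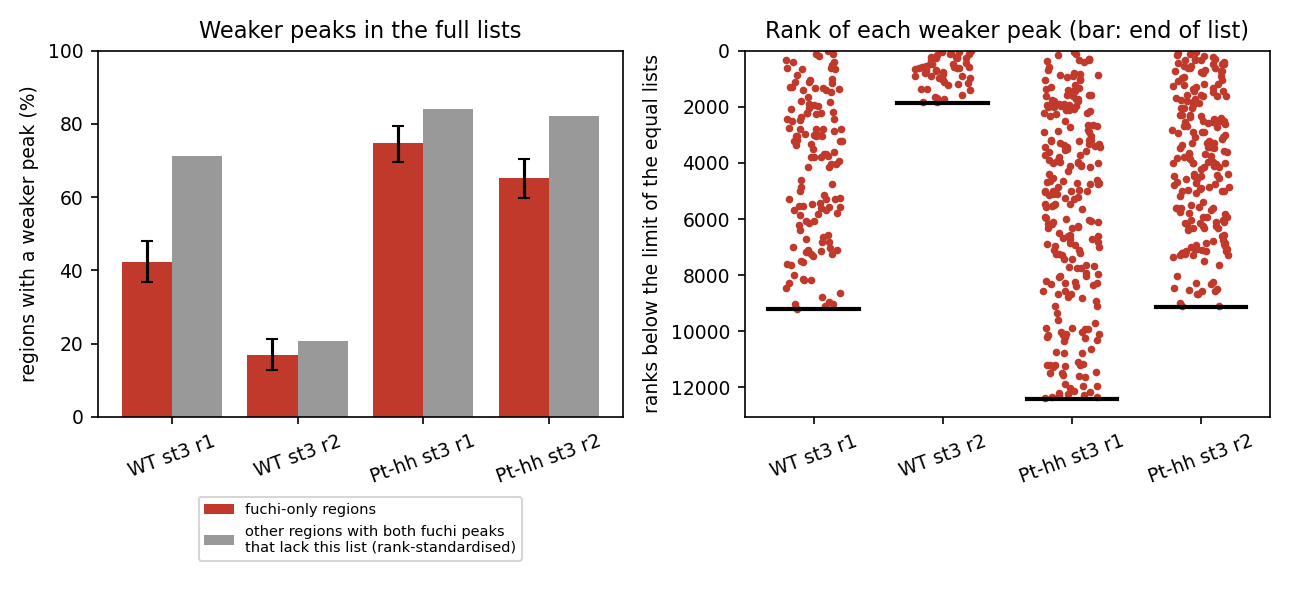
Left, share of regions (%) with a weaker peak in the full list of each other stage-3 library, for the *fuchi*-only regions (red, bars of exact 95% binomial intervals) and for shared regions without a peak in that list of equal length, weighted to the same signal percentiles (grey). Right, rank of each weaker peak below the limit of 10616 for the *fuchi*-only regions, with a black line at the end of each list; the peaks are spread over the whole depth of each list.

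The weaker peaks were not gathered just under the limit. Their median rank was 14293.5 in wild-type replicate 1, 11262 in wild-type replicate 2, 15848 in *Pt-hh* pRNAi replicate 1 and 14435 in *Pt-hh* pRNAi replicate 2. This placed the median at 40.0%, 34.4%, 42.1% and 41.9% of the way from the limit to the end of the list. Weaker peaks within 500 ranks of the limit numbered 8, 18, 9 and 16 in the same order, and 48 members (15.2%) had at least 1 of them. The weaker peaks lay at the same place as the *fuchi* pRNAi peaks: the summit was within 50 bp of the nearer *fuchi* pRNAi summit at 80.6%, 86.8%, 85.6% and 84.0% of them.

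By number of lists, 60 members (19.0%) had a weaker peak in 1 other library, 106 (33.5%) in 2, 95 (30.1%) in 3 and 18 (5.70%) in all 4. The median percentile of these classes and of the 37 was between 27.6 and 30.9. Their widths differed more, as the 18 members with weaker peaks in all 4 libraries had a median width of 254 bp, and the 37 with none had 535 bp. Both *Pt-hh* pRNAi libraries had a weaker peak at 173 members (54.7%) and both wild-type libraries at 23 (7.28%). A weaker peak in a *Pt-hh* pRNAi library and in no wild-type library was found at 115 members (36.4%), and the reverse at 10 (3.16%). The *Pt-hh* pRNAi lists together held more peaks below the limit than the wild-type lists, and the part of list length in this contrast was not tested, beyond the pair of nearly equal length given above. For these counts by number and pair of lists, no share over all stage-3 regions was computed. They are therefore not read as a trait of the members.

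The sources of the embryos did not divide the libraries by treatment alone. Both *fuchi* pRNAi libraries were of line 40, while the wild type and *Pt-hh* pRNAi each had 1 library of either line at stage 3. In the lists of equal length, 722 of the regions with both *fuchi* pRNAi peaks had none in the other line-40 libraries, and 777 had none in the line-39 libraries. The 316 *fuchi*-only regions were 43.8% of the 722, and the remaining 406 had a peak in a line-39 library. Single libraries also kept regions out of the set. A peak in wild-type replicate 2 alone removed 245 regions, in *Pt-hh* pRNAi replicate 2 alone 158, in *Pt-hh* pRNAi replicate 1 alone 119 and in wild-type replicate 1 alone 78.

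The strongest 10 *fuchi*-only regions were examined one by one, and are numbered by mean signal percentile. The first, NW_018374226.1:1101903-1102994, had percentiles of 88.6 and 82.6 in *fuchi* pRNAi replicates 1 and 2, with signals of 732 and 705. Its mean was 85.6 ± 4.29 (SD, n = 2). It only just counted as absent from wild-type replicate 2, which had a peak there at rank 10644, 28 ranks below the limit. *Pt-hh* pRNAi replicate 2 had one at rank 11927, and peaks in stage-1 replicate 1 and stage-2 replicate 2 stood at percentiles of 80.9 and 85.1.

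The second, NW_018370157.1:941470-942811, had percentiles of 83.7 and 87.3 and a mean of 85.5 ± 2.50 (SD, n = 2). Weaker peaks were present at rank 16678 in wild-type replicate 1 and at ranks 19272 and 14481 in the *Pt-hh* pRNAi replicates. It was the only one of the 10 without a peak in any stage-1 or stage-2 list of equal length. The third, NW_018383631.1:4259725-4260335, had percentiles of 84.2 and 79.9, weaker peaks at replicate 1 of the wild type and of *Pt-hh* pRNAi, and early peaks in 3 of the 4 early lists.

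The fourth, NW_018378148.1:582967-584408, was the strongest of the 37 regions without any weaker peak. Its percentiles were 80.9 and 77.8 with signals of 572 and 628, and the 2 *fuchi* pRNAi summits were 3 bp apart. The region was accessible before stage 3. Stage-1 replicate 2 had a peak at a percentile of 90.6, and the stage-2 replicates had peaks at 71.9 and 92.2, so that a wild-type peak of high rank at stage 2 had no called counterpart in either wild-type stage-3 library.

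The sixth, NW_018378875.1:9721342-9722043, stood at the other end, with a peak in every library once the full lists were searched. Its percentiles were 61.0 and 80.2 in the *fuchi* pRNAi replicates. The weaker peaks had ranks of 14531 and 10873 in the wild-type and 13515 and 12414 in the *Pt-hh* pRNAi replicates. The early peaks had percentiles of 94.8 and 49.2 at stage 1 and 82.6 and 94.0 at stage 2.

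The rest of the 10 were less even between replicates. The fifth, NW_018378242.1:817538-818941, had the highest percentile of any member in replicate 1, 92.2, but 54.8 in replicate 2. The seventh, NW_018372020.1:4011341-4011979, had 83.2 and 52.7 with summits 0 bp apart, and the eighth, NW_018373457.1:4949-5822, had 84.8 and 50.1 with summits 533 bp apart. The ninth, NW_018377942.1:88262-88718, had 73.2 and 49.0, and the tenth, NW_018372893.1:1775-2554, had 53.0 and 67.4. Each of these 5 had at least 1 weaker peak and at least 1 early peak.

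**Figure D3:**
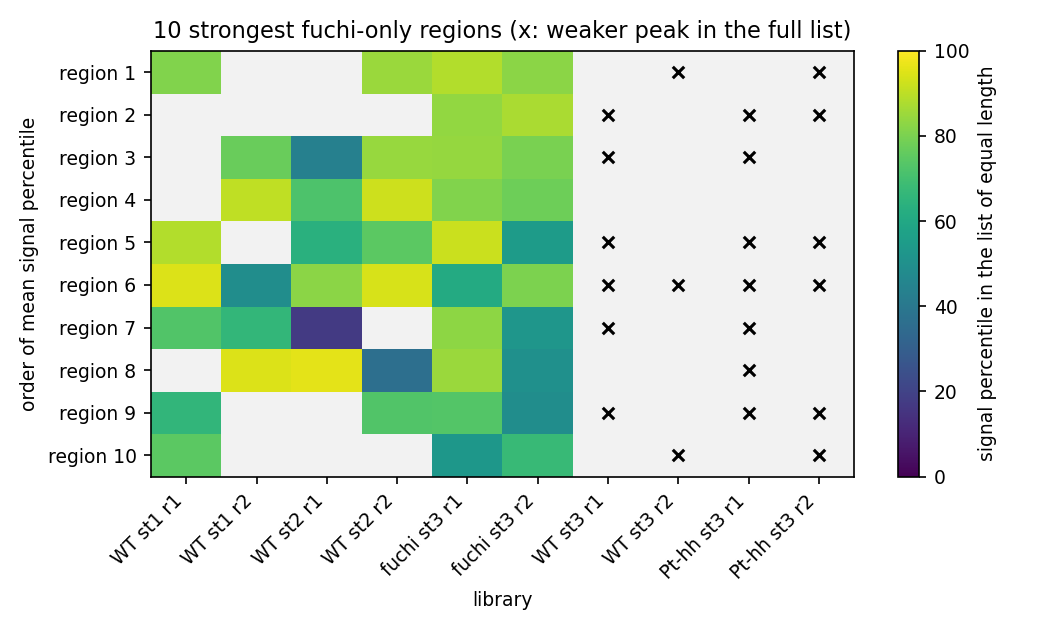
Signal percentile (colour, 0 to 100) of the 10 strongest *fuchi*-only regions (rows) in the lists of equal length of the 10 libraries (columns, r1 and r2 are replicates). Light grey marks no peak in the list of equal length and a cross a weaker peak in the full stage-3 list; region 4 has no cross and region 6 has 4.

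Of the 4 next strongest of the 37 regions without any weaker peak, 3 were uneven between the replicates. NW_018370773.1:854197-855988, at 1792 bp the widest member, had percentiles of 34.4 and 84.2. NW_018375016.1:8477251-8478287 had 83.2 and 18.3, and NW_018378837.1:526037-526816 had 78.6 and 22.5. NW_018381699.1:3227054-3227624 was more even, at 40.3 and 51.1, and had no early peak. The first 3 of these 4 each had at least 1 early peak of equal length. They had 1, 3 and 2 early peaks.

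The stage-1 and stage-2 lists were not used to choose the regions. They were cut to 10616 peaks as well, and a region kept an early peak where an early list of equal length overlapped it. In stage-1 replicate 1, 126 *fuchi*-only regions (39.9%) had a peak, against 29.8% of all stage-3 regions. In stage-1 replicate 2 the number was 64 (20.3%), against 17.4%. In stage-2 replicate 1 it was 78 (24.7%), against 31.9%, and in stage-2 replicate 2 it was 161 (50.9%), against 29.7%. The *fuchi*-only regions thus stood above the background of all regions in 3 lists and below it in the fourth. The stage means were 30.1 ± 13.9% at stage 1 and 37.8 ± 18.6% at stage 2 (SD, n = 2 each), so the difference between the stages was smaller than the spread between their replicates.

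Early peaks are commoner at stronger stage-3 regions, and the shared regions were therefore weighted to the signal percentiles of the *fuchi*-only regions in 10 bands. Unweighted, the shared regions had an early peak at 53.6%, 32.1%, 58.3% and 53.6% in stage-1 replicates 1 and 2 and stage-2 replicates 1 and 2. Weighted, the shares were 31.4%, 14.2%, 34.8% and 34.5%. The *fuchi*-only share was above the weighted shared one by 8.44 and 6.09 percentage points in the stage-1 replicates and by 16.4 points in stage-2 replicate 2. In stage-2 replicate 1 the difference was −10.1 points. The mean difference was 7.26 ± 1.66 points at stage 1 and 3.15 ± 18.7 points at stage 2 (SD, n = 2 each). The *fuchi*-only regions were narrower, and a wider region can overlap more peaks. Weighted also by width in 3 classes, the shared regions had shares of 33.9%, 14.8%, 33.3% and 41.0% in the same order. The mean difference was then 5.72 ± 0.379 points at stage 1 and 0.652 ± 13.1 points at stage 2 (SD, n = 2 each). The 2 stage-2 replicates thus gave opposite directions, and no difference beyond their spread was measured at stage 2. Stage-2 replicate 1, with the negative difference, came from line 39, and replicate 2, with the positive one, from line 40, the line of both *fuchi* pRNAi libraries. Stage-1 replicate 1, where the difference was positive, was also of line 39. The full early lists also differed in length. They held 51893 and 23985 peaks in stage-2 replicates 1 and 2, and 24066 and 137892 in stage-1 replicates 1 and 2. Line, list length and replicate cannot be told apart at stage 2, and the part of list length was not tested. No test of the differences in share was made, and regions of 1 library are not replicates. Without *fuchi* pRNAi replicate 1 or 2 in the choice of regions, the stage-1 difference was −4.81 or −3.04 points, so its direction was not the same in all settings. Leaving out a replicate also changed the shared regions and the percentile used for weighting. The part of each in the change of sign was not tested.

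**Figure D4:**
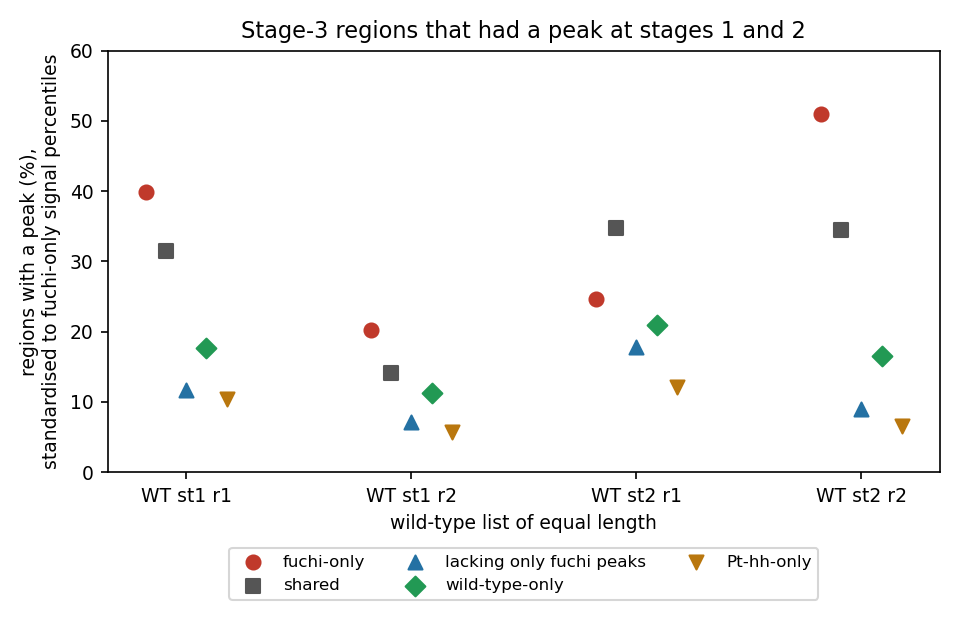
Share of regions (%) with a peak in each wild-type stage-1 and stage-2 list of equal length (x axis), 1 point per set, for *fuchi*-only regions and, weighted to their signal percentiles, shared, lacking only *fuchi* pRNAi peaks, wild-type-only and *Pt-hh*-only regions. The *fuchi*-only point is highest in 3 of the 4 lists, at 39.9%, 20.3% and 50.9%, and is below the shared point in stage-2 replicate 1, at 24.7% against 34.8%.

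The shares were also compared within bands of signal. In the members below percentile 20 (n = 96), the shares in stage-1 replicates 1 and 2 and stage-2 replicates 1 and 2 were 27.1%, 16.7%, 14.6% and 46.9%, against 24.3%, 10.2%, 24.3% and 27.7% in the 354 shared regions of the same band. From 40 to 60 (n = 77) they were 57.1%, 22.1%, 36.4% and 58.4%, against 41.8%, 21.7%, 44.9% and 43.7% in 1578 shared regions. The sign of the difference in each list was the same in the 3 bands below 60, though in stage-1 replicate 2 the gap in the third band was small. Above 60 only 10 members remained, too few for a share.

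**Figure D5:**
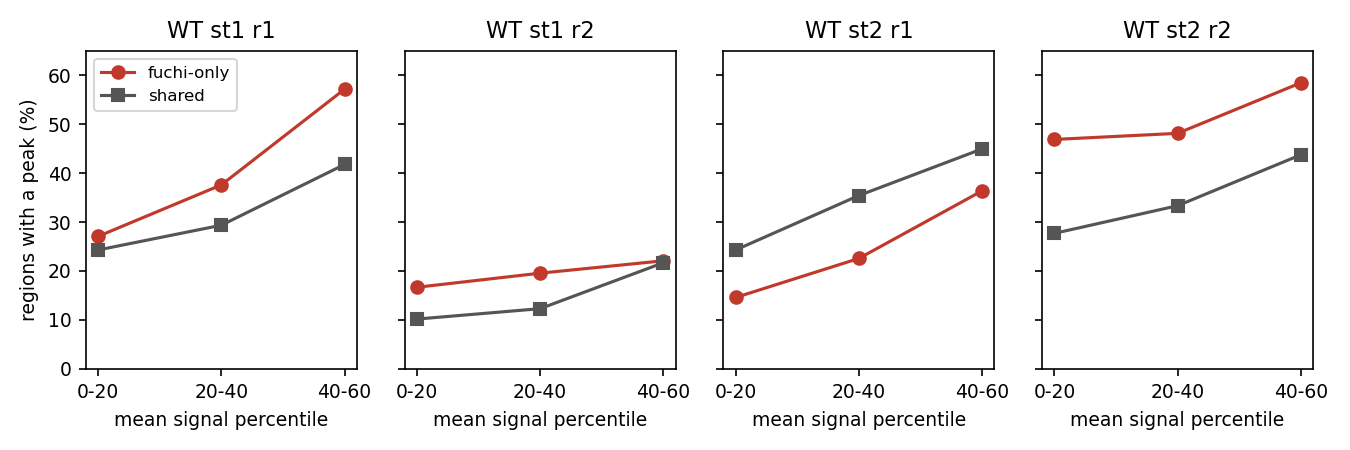
Share of regions (%) with a peak in each early list of equal length, by band of mean signal percentile in the *fuchi* pRNAi lists, for *fuchi*-only regions (red circles; n = 96, 133 and 77 from low to high) and shared regions (grey squares; n = 354, 1155 and 1578). Both lines climb with signal; red is above grey in each band of 3 lists and below it in each band of stage-2 replicate 1.

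The difference was wider against regions with the opposite pattern. Of the 330 regions that had peaks in the other 4 stage-3 lists and lacked only the *fuchi* pRNAi peaks, weighted in the same way, 11.7% and 7.14% had a peak in the stage-1 replicates and 17.9% and 9.03% in the stage-2 replicates. The *fuchi*-only shares were higher by 28.2, 13.1, 6.80 and 41.9 percentage points. The mean difference was 20.7 ± 10.7 points at stage 1 and 24.4 ± 24.8 points at stage 2 (SD, n = 2 each), positive in 4 of 4 early lists, and at stage 2 it was smaller than the SD of the replicates. It was above 0 in each of the 14 alternative settings tried per stage, which were chosen after the data were seen, and was lowest at stage 1 without *fuchi* pRNAi replicate 1 in the choice of regions, at 6.68 points. The settings that left out 1 early library only gave the differences in single early lists again. The wild-type-only regions had weighted shares of 17.6%, 11.2%, 20.9% and 16.6% in the same order, and the *Pt-hh*-only regions 10.5%, 5.72%, 12.2% and 6.51%. Both sets were below the *fuchi*-only regions in each early list.

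The *fuchi* pRNAi lists as a whole also had more early peaks than most of the other stage-3 lists. In stage-1 replicate 1, 44.2% and 41.2% of the peaks of *fuchi* pRNAi replicates 1 and 2 overlapped an early peak, and the other 4 lists gave 37.5% to 40.7%. In stage-1 replicate 2 the values were 25.2% and 24.7%, the second hardly above the highest of the others, which lay at 22.1% to 24.6%. In stage-2 replicate 2 they were 44.1% and 42.3%, against 34.99% to 40.8%. In stage-2 replicate 1 they were 46.1% and 43.8%, against 42.2% to 45.5%. The part that this property of the libraries has in the *fuchi*-only shares was not tested.

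At least 1 early list had a peak at 230 *fuchi*-only regions (72.8%), against 65.7% of the weighted shared regions and 44.5% of the regions lacking only *fuchi* pRNAi peaks, the last unweighted. Over all stage-3 regions the share was 57.1%. The remaining 86 *fuchi*-only regions (27.2%) had none. Both stage-1 replicates had a peak at 39 members (12.3%) and both stage-2 replicates at 43 (13.6%), against 7.36% and 14.5% of the weighted shared regions. Over all stage-3 regions these shares were 10.8% and 15.5%, so the members were near them, above at stage 1 and below at stage 2. The early lists with the most *fuchi*-only peaks, stage-1 replicate 1 of line 39 and stage-2 replicate 2 of line 40, both had a peak at 93 members (29.4%), against 17.2% of the weighted shared regions. That joint share was 17.0% over all stage-3 regions. This pair was picked for its high *fuchi*-only shares, so its joint share is not a separate result. All 4 early lists had a peak at 7 members (2.22%), below the 3.11% of the weighted shared regions and the 6.53% of all stage-3 regions. Besides the sixth region the 7 included NW_018379081.1:650497-651135, with early percentiles of 89.1, 26.6, 74.4 and 92.2. They also included NW_018376801.1:33024-33301, with 73.9, 26.2, 16.7 and 61.3. Also among the 7 were NW_018377125.1:3183422-3183691, whose lowest early percentile was 0.791, and NW_018370099.1:148284-148864, which stood at 83.4 in *fuchi* pRNAi replicate 1 and 2.15 in replicate 2.

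The early peaks at the *fuchi*-only regions were mostly of upper rank in 3 of the 4 early lists, and not in stage-2 replicate 1. Their median percentile was 62.5 and 63.8 in the stage-1 replicates and 46.5 and 68.0 in the stage-2 replicates. These values were below the unweighted medians of 74.2 to 80.3 at the shared regions. They cover only the members with an early peak, so they are not comparable with the stage-3 median of 28.1 over all members. Their summits were within 50 bp of the nearer *fuchi* pRNAi summit at 67.5% and 42.2% of the regions with a stage-1 peak and at 53.8% and 70.2% of those with a stage-2 peak, against 60.3%, 49.8%, 58.9% and 64.4% in the shared regions. The median distances were 20.5, 59.5, 39.5 and 26 bp, against 34, 51, 35 and 27.5 bp in the shared regions. The lists in which the *fuchi*-only regions had the most peaks, stage-1 replicate 1 and stage-2 replicate 2, were those with the closest summits. The same lists had the closest summits in the shared regions, so this is not particular to the *fuchi*-only regions.

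An early peak and a weaker stage-3 peak occurred together at 209 of the 279 members with a weaker peak (74.9%), and an early peak was present at 21 of the 37 members without one (56.8%). A weaker peak in a wild-type stage-3 library made little difference to this share, which was 73.2% of 164 regions with one and 72.4% of 152 without.

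The *fuchi*-only regions were scattered over the assembly. They lay on 208 scaffolds, of which 145 held a single one and none more than 6. Within 50 kb of another *fuchi*-only region were 45 (14.2%), compared with 44 of the 330 regions lacking only *fuchi* pRNAi peaks (13.3%) and 15 of the 243 *Pt-hh*-only regions (6.17%). The median distance to the nearest region of all 6 lists was 92.6 kb, and 57 members (18.0%) had one within 10 kb. The regions lacking only *fuchi* pRNAi peaks lay at a median of 56.6 kb and the *Pt-hh*-only regions at 102.0 kb. No region of all 6 lists was on the scaffold of 29 *fuchi*-only regions, 12 regions lacking only *fuchi* pRNAi peaks and 14 *Pt-hh*-only regions. These have no such distance. Positions were not computed over all stage-3 regions, so they are not read as a trait of the members.

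The 45 neighbours formed 19 groups. The largest held 5 members over 56.2 kb at NW_018378148.1:578172-634353 and included the fourth region, and the mean percentiles of its members ranged from 11.3 to 79.4. The next held 4 members over 41.7 kb at NW_018377942.1:47023-88718, with percentiles from 35.1 to 61.1, and included the ninth region. At NW_018381699.1:3227054-3247451, both members of a pair 20.4 kb across had no weaker peak in any other stage-3 library. Such neighbours share a stretch of a scaffold, and the 316 regions are not replicates of each other.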

How the data were processed

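Peak lists of 10 ATAC-seq libraries were used. In the study's methods, reads went through Trim Galore! and were aligned by the authors to Ptep_2.0 with Bowtie2 (version 2.2.5). They discarded alignments of low mapping quality and duplicates, and called peaks for each library alone with Genrich (version 0.6 in the submitters' processing notes) in its ATAC-seq mode, without a control and without pooling. The deposited signal and the deposited −log10 p-value are the authors' values from the caller, and the remaining deposited column gives the distance from peak start to summit. The signal is not scaled between libraries, so only ranks within a list were compared. Read depth is unknown. A longer list reaches weaker peaks, which is why lists of equal length (10616) were used, though depths may still differ between them.

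Peaks overlapping by at least 1 bp were merged. A percentile is the rank by signal in the list of equal length, from 100 downwards. Weighted shares give each band of 10 percentiles the weight it has among the *fuchi*-only regions. The regions lacking *fuchi* pRNAi peaks, the wild-type-only and the *Pt-hh*-only regions took their percentile from their own lists. Scripts used Python 3.11.15 with pandas 2.3.3, numpy 2.4.6 and scipy 1.17.1 and were tested on simulated data. Each pair of replicates was taken from the labels, and no test was made or p-value computed, since the regions were chosen from these lists and the comparisons are descriptive. Named were the 10 members of highest mean percentile, the 5 highest without any weaker peak, the 5 highest with a peak in all 4 early lists, and the 2 members and 2 other regions nearest the limit. The members, lists and rules were chosen with earlier results of these data known. A list of genes and a list of motifs had been planned and were not applied, since the gene table at hand is of another assembly. The alternatives were peaks ranked by p-value, merging only where 50% of the shorter peak overlapped, lists of 5308 peaks, all deposited peaks, absence judged from the full lists, windows of 200 bp around summits, full early lists, weighting also by width, weaker peaks within 500 bp, and leaving out each library.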

Additional observations from a re-analysis of the deposited data

How the results depend on the processing

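The number of *fuchi*-only regions, 316, depended on how far the lists went: it was 162 in lists of 5308 peaks, 79 with all deposited peaks and 37 when absence was judged from the full lists. Leaving out 1 stage-3 library at a time gave 394 to 1949 regions, the most without *fuchi* pRNAi replicate 2 and 1322 without *fuchi* pRNAi replicate 1. Ranking by p-value gave 323 regions, of which 143 were among the 316. Lists of 5308 peaks kept 12 of the 316, and windows of 200 bp kept 289. The share with a weaker peak, 88.3%, was 99.4% in lists of 5308 peaks and 65.2 to 90.4% with 1 library left out, lowest without *fuchi* pRNAi replicate 2. It has no value with all deposited peaks. The share with a stage-1 peak, 30.1%, was 53.8% with all deposited peaks, 56.0% with the full early lists and 16.2 to 39.9% with 1 library left out. The share with a stage-2 peak, 37.8%, was 57.6%, 65.2% and 21.6 to 50.9% under the same settings. The stage-1 difference to the weighted shared regions, 7.26 points, was 1.95 when ranked by p-value, 5.06 in lists of 5308 peaks, 3.51 with all deposited peaks, 3.48 in 200 bp windows and 3.70 with the full early lists. Weighted also by width it was 5.72 points. With 1 library left out it ranged from −4.81 to 15.8 points, below 0 without *fuchi* pRNAi replicate 1 (−4.81) or 2 (−3.04). The cause was not tested. The stage-2 difference ranged from −10.1 to 16.4 points over 15 settings and was below 0 in 9. Both ends of this range are the values of the single stage-2 replicates. Weighted also by width, the stage-2 difference was 0.652 points. The difference to regions lacking only *fuchi* pRNAi peaks, an alternative comparison chosen after seeing the data, ranged with 1 library left out from 6.68 to 29.3 points at stage 1 and from 6.80 to 41.9 at stage 2. The ends at stage 2 are again the values of the single stage-2 replicates. Of all 136 alternative values, 97 stayed within the spread or 1.5 times the main count and 37 moved. The other 2, both of the stage-1 difference to the shared regions, changed sign from a main value beyond its spread. A change of sign within the spread was not counted as one. The stage-2 difference to the shared regions, with an SD of 18.7 points, was therefore among the 97 in all 15 settings, also in the 9 below 0. With 1 of the 2 libraries of an early stage left out, a value is that of the other library alone. It then lies within the SD of the 2 by construction, so its place among the 97 shows no stability. No paired analysis was possible because the results come from no test, and both *fuchi* pRNAi libraries are of line 40, so they cannot be matched by line to the other stage-3 groups. The read depth is unknown, so a missing peak may be a peak under the caller's threshold.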
